A study of Mus musculus with 2 samples.

Results

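C1q macrophages poor in Mmp13 and Pf4 were examined among the CD11b+ and CD11c+ cells of mouse colorectal polyps. A barcode was kept in the filter if it had between 200 and 4000 genes detected and no more than 10% of its UMIs from mitochondrial genes. Members then reached a score of 20 for C1qa, C1qb and C1qc together, a score being the summed UMIs of the genes per 10,000 UMIs of the barcode. Their S100a8 plus S100a9 score stayed under 80, and their score for Mmp13, Pf4, Adamdec1 and Dnase1l3 stayed under 10. A UMI is a molecular tag that counts 1 captured transcript, and a barcode stands for 1 cell. The rule found 745 members among the 5849 barcodes that passed the filter (6547 barcodes were deposited), 459 of 3147 in the WT library and 286 of 2702 in the Clec7a-/- library. The same UMIs chose the members, so the values of these 9 genes, and every difference between the members and other barcodes, are descriptions. Both libraries came from C57BL6/J mice labelled 26 weeks old, with polyps taken 16 weeks after azoxymethane (AOM), a carcinogen that starts colon tumors. All had also received 3 cycles of 1% dextran sodium sulfate (DSS), which injures the colon lining. The WT library pooled cells of 5 mice and the Clec7a-/- library cells of 4 mice that lack Dectin-1, a receptor for beta-glucans, whose germline knockout had been backcrossed onto the same background strain. The study asked how the loss of Dectin-1 changes myeloid cells of the tumor. There was 1 library per genotype, so the spread between mice was not measured, no test was run, and every 95% interval given covers counting error only.

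Macrophages that express C1q, the recognition subunit of the classical complement pathway, are the resident phagocytes of the gut wall. Most of them arise from blood monocytes, which lose Ly6c2 and gain Cx3cr1, MHC class II and C1q as they mature in the tissue. Mmp13 encodes a collagenase, Pf4 a platelet-type chemokine, Adamdec1 a metalloprotease of gut macrophages and Dnase1l3 a secreted DNase. The members thus hold the C1q program with few transcripts of these 4 genes.

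The 3 C1q genes lie side by side on the minus strand of chromosome 4 in GRCm38: C1qa at chr4:136895917-136898803, C1qb at chr4:136880129-136886187 and C1qc at chr4:136889804-136893065. C1qb gave the most UMIs of the 3. The 250 bases before its start (RefSeq, GRCm38.p6, chr4:136886201-136886450, minus strand, read 5' to 3') are shown because this gene carries most of the score that defines the cells.
C1qb: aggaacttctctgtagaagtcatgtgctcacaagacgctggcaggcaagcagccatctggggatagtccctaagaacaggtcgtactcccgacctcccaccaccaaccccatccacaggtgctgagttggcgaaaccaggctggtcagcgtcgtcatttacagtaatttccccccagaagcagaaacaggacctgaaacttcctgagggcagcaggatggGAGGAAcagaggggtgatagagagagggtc
The capitals mark the only match to GAGGAA, a purine-rich core of the kind that ETS factors such as PU.1 bind, searched on both strands. It starts 30 bases before the gene's start in RefSeq, which lies upstream of the start in the coordinates above. Of the 32851 promoter windows of this length, 23.3% hold the same letters, so the match is a description.

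The score values showed how the members sit beside the limits. The C1q score had a median of 74.8 per 10,000 UMIs in WT members (lowest 20.0, highest 182) and 82.0 in Clec7a-/- members (lowest 20.3, highest 206). The Mmp13, Pf4, Adamdec1 and Dnase1l3 score had a median of 2.53 in WT and 2.19 in Clec7a-/-, and it was 0 in 149 WT and 111 Clec7a-/- members. Neither limit fell in a gap between groups of barcodes. With a C1q score of 20 to under 25 there were 28 WT and 20 Clec7a-/- members, and just outside, from 15 to under 20, there were 27 and 19 barcodes. With an Mmp13 and Pf4 score of 8 to under 10 there were 39 and 22 members, and from 10 to under 12 there were 40 and 31 C1q macrophages of the rich kind. An S100a8 plus S100a9 score of 80 or more kept out 32 WT and 4 Clec7a-/- barcodes with the other scores of the rule, over 4000 detected genes kept out 26 and 16, and over 10% mitochondrial UMIs kept out 11 and 24. The rich kind, which met the same rule with an Mmp13 and Pf4 score of 10 or more, counted 329 WT and 244 Clec7a-/- barcodes. Members held fewer UMIs than the rich kind, with medians of 5884 against 6938 in WT and 5145.5 against 5867 in Clec7a-/-, and lower depth makes a score coarser. The libraries shared 17 barcodes, 1 of them among the members.

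**Figure D1:**
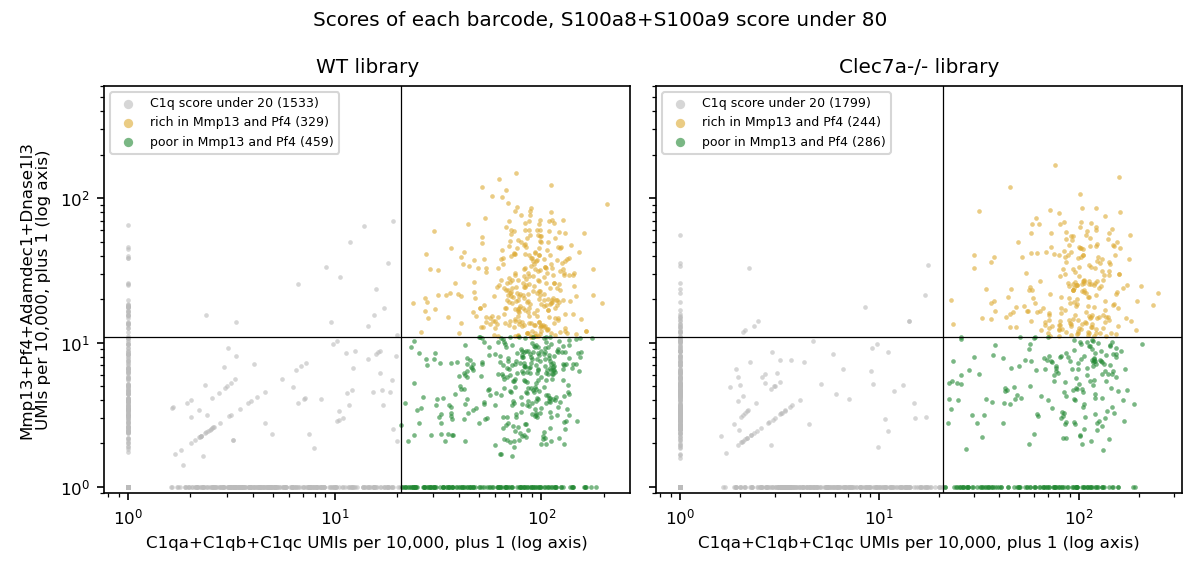
Each point is 1 barcode with an S100a8 plus S100a9 score under 80, by its C1q score (x axis) and its Mmp13, Pf4, Adamdec1 and Dnase1l3 score (y axis), both in UMIs per 10,000 plus 1 on log axes, for WT (left) and Clec7a-/- (right). Lines mark the limits of 20 and 10, and the 459 WT and 286 Clec7a-/- members spread from 0 up to the limit of 10 without a gap below the rich kind.

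The members carried macrophage transcripts. In the summed UMIs, given per 1000000 UMIs (CPM) with 95% Poisson intervals, C1qc stood at 3067 (3005 to 3130.0) in WT and 3594 (3501 to 3688) in Clec7a-/-. Ms4a7, a membrane protein of mature macrophages, stood at 472 (448 to 497) in WT and 487 (454 to 523) in Clec7a-/-. Mmp12, macrophage elastase, stood at 1540.3 (1496 to 1585) and 1331 (1275 to 1389). The fractalkine receptor gene Cx3cr1 was low, at 64.2 (55.5 to 73.9) and 120.1 (104 to 138), and 356 of 459 WT and 203 of 286 Clec7a-/- members had no Cx3cr1 UMI. Of these 4 markers, Ms4a7 and Mmp12 were lower in the members than in the rich kind in both libraries, so they do not set the poor kind apart from the rich. All 14 genes of the macrophage list were detected. Among them the CSF-1 receptor gene Csf1r stood at 1514 in WT and 1909 in Clec7a-/- and Adgre1, which encodes F4/80, at 256 in WT and 295 in Clec7a-/-. The lysosomal glycoprotein gene Cd68 stood at 964 in WT and 984 in Clec7a-/- and the efferocytosis receptor gene Mertk at 37.2 in WT and 34.4 in Clec7a-/-. The genes with the most UMIs were Fth1, which encodes ferritin heavy chain (22632 in WT and 22839 in Clec7a-/-), and Lyz2, which encodes lysozyme (16019 in WT and 18902 in Clec7a-/-). They were followed by the actin-binding Tmsb4x (14216 in WT and 14224 in Clec7a-/-), the mitochondrial mt-Co1 (10063 in WT and 10642 in Clec7a-/-) and the MHC class II gene H2-Aa (8387 in WT and 8333 in Clec7a-/-).

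Genes of perivascular and serosal resident macrophages were near 0. Lyve1 had 1 UMI in WT and 0 in Clec7a-/-, Cd163 had 0 and 1, Folr2 had 6 and 1, Timd4 had 9 and 3, and Cbr2, Cd209f and Cd209g had none, which allows at most 0.988 CPM in WT and 1.88 in Clec7a-/- at 3 UMIs. Other genes of the scavenger list were present. Selenop, a selenium carrier, stood at 765 in WT and 806 in Clec7a-/-, and the phosphatidylserine receptor gene Axl at 508 in WT and 499 in Clec7a-/-. The scavenger receptor gene Stab1 stood at 177 in WT and 223 in Clec7a-/- and the growth factor gene Igf1 at 52.4 in WT and 72.6 in Clec7a-/-. Markers of other cell types were also read. The type 1 dendritic cell list summed to 143 CPM in WT and 165 in Clec7a-/-, led by Cadm1 (108 in WT and 123 in Clec7a-/-), while its defining genes Xcr1 and Clec9a had 10 and 4 UMIs in WT and 10 and 1 in Clec7a-/-. The type 2 list summed to 265 and 286, led by Mgl2 (198 in WT and 222 in Clec7a-/-), with Cd209a at 2 and 1 UMIs and Flt3 at 3 in each library. The mature dendritic cell list summed to 238 and 174, led by Ccr7 (132 in WT and 101 in Clec7a-/-). The plasmacytoid list summed to 246 and 275, led by the interferon-induced Bst2 (182 in WT and 198 in Clec7a-/-), with Siglech at 8 and 1 UMIs. The T cell list summed to 141 CPM in WT and 126 in Clec7a-/-, most of it Il7r (134 in WT and 106 in Clec7a-/-), with Cd3e at 1 UMI in each library, Trac at 11 and 13 UMIs and Trbc2 at 2 and 12. The B and plasma cell list summed to 53.0 and 71.9 with Ighm as its most abundant gene. The mast cell list summed to 12.2 and 5.63 with Mcpt1 leading, the epithelial list to 31.6 and 10.0 with Krt8 leading, and the NK cell list to 1.65 and 0, with Ncr1, Gzma, Prf1 and Eomes at 0. The neutrophil list summed to 4025 and 2867, of which Cxcl2, a chemokine that macrophages also make, gave 3301 in WT and 2352 in Clec7a-/-. Its other genes were led by S100a9 (316 in WT and 269 in Clec7a-/-) and S100a8 (193 in WT and 121 in Clec7a-/-), which the rule limits but does not remove, while Camp was at 0 and Ly6g had 3 UMIs in WT and 1 in Clec7a-/-.

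**Figure D2:**
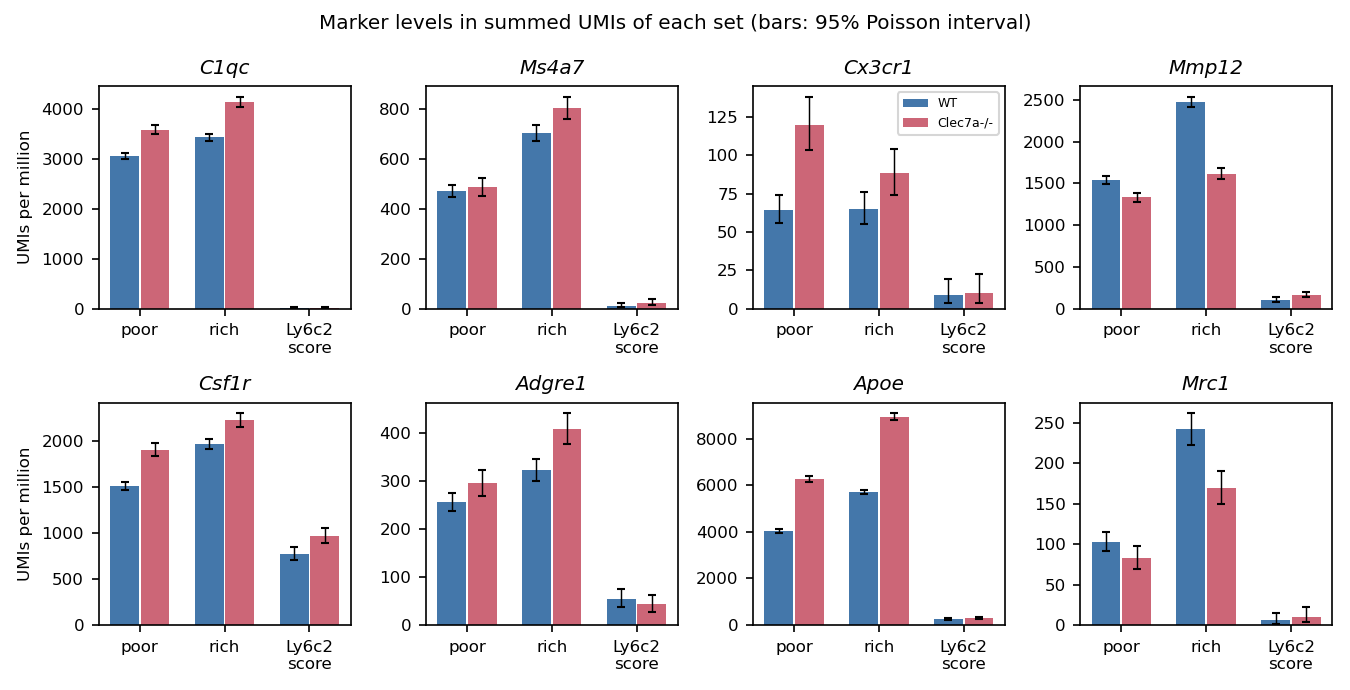
Bars give CPM in the summed UMIs of the members (poor), of the C1q macrophages rich in Mmp13 and Pf4 (rich) and of barcodes with a Ly6c2, Chil3 and Plac8 score of 20 or more (Ly6c2 score), in WT (blue) and Clec7a-/- (red), with 95% Poisson intervals that cover counting error only. Csf1r, Adgre1, Apoe and Mrc1 are lower in the poor than in the rich macrophages in both libraries and all 8 genes are higher than in the barcodes with the Ly6c2 score.

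Some members also carried transcripts of other classes. A score of at least 10 for Ccl24, Mmp19 and Sdc1, genes of macrophages in transition from monocytes, was found in 152 of 459 WT members (33.1%, Clopper-Pearson interval 28.8 to 37.6) and 66 of 286 Clec7a-/- members (23.1%, 18.3 to 28.4). The mature dendritic cell score of Fscn1, Ccl22 and Ccr7 reached 10 in 20 WT (4.36%) and 10 Clec7a-/- members (3.50%). The cell cycle score of Top2a, Mki67, Pclaf, Stmn1 and Birc5 reached 10 in 29 (6.32%) and 22 (7.69%). T cell, type 1 and type 2 dendritic cell and monocyte scores were reached by at most 1 member in either library. The immunoglobulin score was reached by none of 459 and 286, which allows shares of up to 0.654% and 1.05% at 3 counts. Among the rich kind the Ccl24, Mmp19 and Sdc1 score was reached by 31.3% in WT and 19.7% in Clec7a-/-.

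The members were a smaller share of the Clec7a-/- library. They made up 14.6% of WT barcodes (13.4 to 15.9) and 10.6% of Clec7a-/- barcodes (9.45 to 11.8), and the log2 ratio was -0.46 (-0.68 to -0.25). Within the C1q macrophages their share was 58.2% (54.7 to 61.7) in WT and 54.0% (49.6 to 58.3) in Clec7a-/-. The log2 ratio of the shares was -0.11, and its interval (-0.33 to 0.11) holds 0. The rich kind made up 10.5% and 9.03% of the barcodes, with a log2 ratio of -0.21 (-0.46 to 0.03). Shares of 1 library each depend on the sort and on the other cells in the library, and the mice behind a library cannot be told apart. Leaving out the members with transcripts of other classes brought the log2 ratio of the share to -0.26.

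Set against the rich kind in the same library, most genes of the members differed by less than 2-fold. Of 4037 genes with at least 100 UMIs over both kinds in each library (the rule's 9 genes left out), 5 (0.124%) were more than 2-fold higher in the members in both libraries and 13 (0.322%) more than 2-fold lower. Above 0 in both libraries stood 38.4% and below 0 in both 27.5%. The poor and rich kinds split a continuous score, so these log2 ratios describe its lower and upper side. Those higher in the members included the calcium-binding S100a4, which is high in recruited monocytes. S100a4 stood at 174 in WT and 182 in Clec7a-/- in the members and 40.8 in WT and 58.1 in Clec7a-/- in the rich kind, a log2 ratio of 2.09 (1.78 to 2.41) in WT and 1.64 (1.30 to 2.0) in Clec7a-/-. S100a6, a related protein, had log2 ratios of 1.30 in WT and 1.37 in Clec7a-/-. F10, which encodes coagulation factor X, had 1.27 in WT and 1.30 in Clec7a-/-. Nt5e, the ecto-enzyme CD73, had 1.07 in WT and 1.21 in Clec7a-/-, and the chemokine receptor gene Ccr7 1.59 in WT and 1.09 in Clec7a-/-. The ratio of Ccr7 turned to -0.31 in WT and -0.34 in Clec7a-/- once barcodes with the scores of other classes were left out of both kinds. Just short of the limit, fibronectin (Fn1) stood at 934 in WT and 857 in Clec7a-/- in the members against 474 in WT and 445 in Clec7a-/-. Alox5ap, which supports leukotriene synthesis, stood at 358 in WT and 379.7 in Clec7a-/- against 191 in WT and 209 in Clec7a-/-.

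Among the genes lower in the members, Ppbp, a platelet-type chemokine encoded near Pf4, stood at 39.2 in WT and 8.13 in Clec7a-/- in the members and 274 in WT and 185 in Clec7a-/- in the rich kind, a log2 ratio of -2.80 (-3.10 to -2.52) in WT and -4.46 (-5.43 to -3.71) in Clec7a-/-. In WT members 64 of its 119 UMIs came from 1 barcode. Pgf, placental growth factor, stood at 26.0 in WT and 21.9 in Clec7a-/- against 197 in WT and 152 in Clec7a-/-. Mmp9, gelatinase B, stood at 72.5 in WT and 213 in Clec7a-/- against 968 in WT and 889 in Clec7a-/-, and its log2 ratio was -3.74 (-3.95 to -3.54) in WT and -2.06 (-2.23 to -1.89) in Clec7a-/-. The Fc receptor gene Fcgr4 had log2 ratios of -1.39 in WT and -1.46 in Clec7a-/- and the mannose receptor gene Mrc1 -1.23 in WT and -1.03 in Clec7a-/-. Npl, a sialic acid lyase, had -1.79 in WT and -2.02 in Clec7a-/-, and the Wnt co-receptor gene Lrp6 -1.13 in WT and -1.24 in Clec7a-/-. The other genes of this rule, Tmem26, Jaml, Dpf1, Ecm1 and Cystm1, had log2 ratios from -2.19 to -1.14 in WT and from -2.02 to -1.32 in Clec7a-/-.

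**Figure D3:**
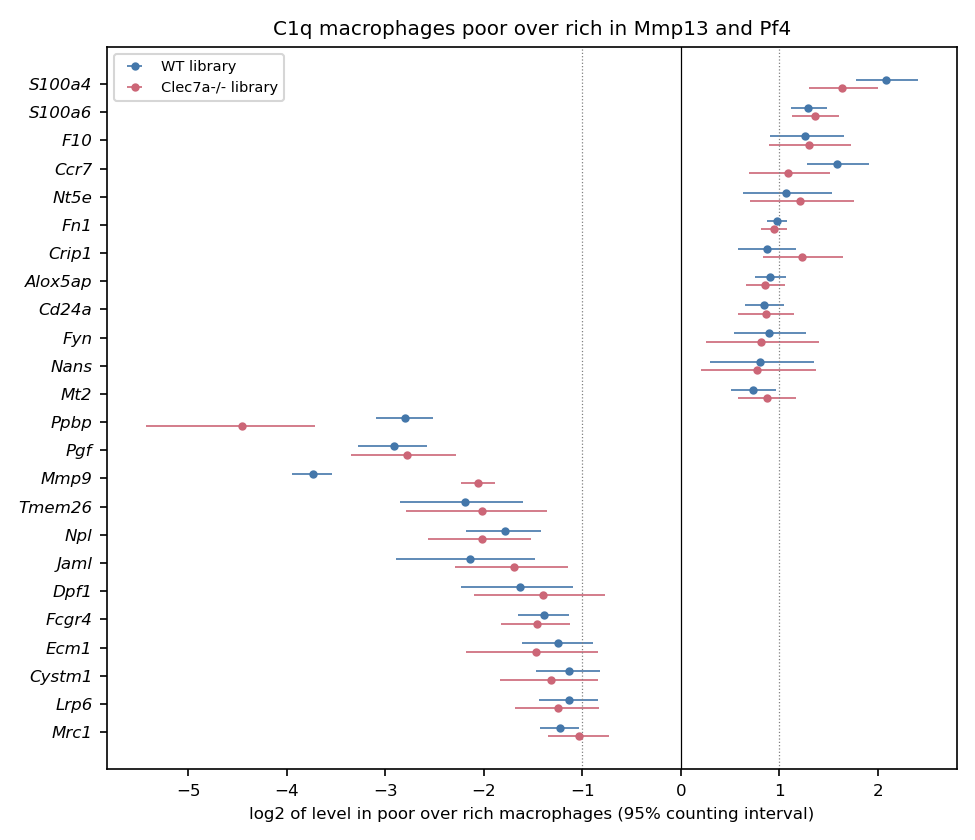
Points give the log2 ratio of the level in poor over rich C1q macrophages in WT (blue) and Clec7a-/- (red) for the 12 genes in each direction with the largest smaller ratio, with 95% counting intervals. Dotted lines mark 2-fold, and S100a4 is highest at 2.09 in WT while Ppbp is lowest at -4.46 in Clec7a-/-.

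By gene list, MHC class II, macrophage and scavenger genes had lower values in the members than in the rich kind, mostly by less than 2-fold. All 6 tested MHC class II genes were below 0 in both libraries, with a median log2 ratio of -0.53 in WT and -0.45 in Clec7a-/-, while none passed 2-fold and the medians over all 4037 genes were 0.03 and 0.04. H2-Aa had log2 ratios of -0.54 in WT and -0.48 in Clec7a-/- and Cd74, the invariant chain, -0.53 in WT and -0.50 in Clec7a-/-. Of the 14 macrophage genes 11 were below 0 in both libraries and none above, with medians of -0.31 and -0.39, and Mrc1 alone passed 2-fold. Of 7 tested scavenger genes 4 were below 0 in both, with Selenop at -0.74 in WT and -0.63 in Clec7a-/- and Msr1, scavenger receptor A, at -0.60 in WT and -0.73 in Clec7a-/-. Of 16 lysosome genes 10 were below and 2 above 0 in both, with cathepsin L (Ctsl) at -0.70 in WT and -0.69 in Clec7a-/- and, among the 2 above, cathepsin D (Ctsd) at 0.36 in WT and 0.30 in Clec7a-/-. Of 6 tested interferon-stimulated genes, 5 were below 0 in both, with Gbp2 at -0.93 in WT and -1.19 in Clec7a-/-. The anti-inflammatory cytokine gene Il10 stood at 57.3 in WT and 35.0 in Clec7a-/- in the members and 179.8 in WT and 70.1 in Clec7a-/- in the rich kind, with 53 of 174 WT member UMIs in 1 barcode. Ptgs1, which encodes cyclooxygenase 1, had log2 ratios of -0.999 in WT and -1.15 in Clec7a-/-. Some lists had more genes above than below 0 in both libraries, as did all 4037 genes (38.4% above and 27.5% below). Such lists included chemokines (6 and 3 of 12) and glycolysis (9 and 2 of 13). Enolase (Eno1) was at 0.28 in WT and 0.55 in Clec7a-/- and Gapdh at 0.25 in WT and 0.27 in Clec7a-/-. The osteopontin gene Spp1, a secreted matrix protein of tumor macrophages, had 0.76 in WT and 0.64 in Clec7a-/-, and Trem2, a lipid-sensing receptor, 0.23 in WT and 0.38 in Clec7a-/-. Of 10 heat shock genes 4 were above and 1 below 0 in both libraries. Hspa1b had opposite signs, at 1.90 in WT and -1.07 in Clec7a-/-, with 279 of 915 WT member UMIs in 1 barcode.

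Barcodes with a Ly6c2, Chil3 and Plac8 score of at least 20 and a C1q score under 20 served as the monocyte comparator, 204 in WT and 210 in Clec7a-/-. This set held transcripts of other cells, with the mast cell list at 2998 and 1186 CPM and the epithelial list at 955 and 754. Its mature dendritic cell list stood at 498 in WT and 1492 in Clec7a-/-, and its B and plasma cell list at 326 and 821. Against this set, 225 of 3196 genes (7.04%) were more than 2-fold higher in the members in both libraries and 113 (3.54%) more than 2-fold lower. Leaving out barcodes with mast, epithelial or B cell transcripts, an alternative chosen after seeing the data, left 188 and 184 barcodes and gave 244 of 3107 genes (7.85%) higher and 120 (3.86%) lower. This step used no dendritic cell gene, and the part of dendritic cell transcripts in the ratios was not tested. In that cleaner comparison the genes named as higher in the members are examples picked after their values were seen, and no list was tested. Matrix genes included Mmp2, gelatinase A, at 155 against 1.65 in WT and 140.1 against 0 in Clec7a-/-. Pdgfa, a growth factor for fibroblasts, stood at 524 against 31.3 in WT and 554 against 42.0 in Clec7a-/-. The growth factor gene Igf1 stood at 52.4 against 0 in WT and 72.6 against 0 in Clec7a-/- CPM. Lipid handling genes included Apoe at 4029 against 256 in WT and 6256 against 283 in Clec7a-/-. Lipoprotein lipase (Lpl) stood at 139.6 against 4.95 in WT and 111 against 3.82 in Clec7a-/- and Trem2 at 242 against 9.89 in WT and 234 against 5.73 in Clec7a-/-. Genes for the clearance of dying cells included Axl at 508 against 19.8 in WT and 499 against 13.4 in Clec7a-/-. Mfge8, a bridge to phosphatidylserine, stood at 251 against 13.2 in WT and 161 against 0 in Clec7a-/-. Other genes of these lists were lower in the members. Cd9 of the lipid list had log2 ratios of -0.64 in WT and -0.37 in Clec7a-/-. Mmp8 had -3.04 in WT and -1.79 in Clec7a-/- and Timd4 -3.03 in WT and -4.30 in Clec7a-/-, both on few UMIs in the members. Genes lower in the members than in the cleaner monocyte set began with Slpi, Saa3, S100a4 and Inhba. The protease inhibitor gene Slpi stood at 218 against 3173 in WT and 185 against 2515 in Clec7a-/-. S100a4 stood at 174 against 1524 in WT and 182 against 1724 in Clec7a-/- and the activin subunit gene Inhba at 225 against 1496 in WT and 121 against 1173 in Clec7a-/-. Il1b and thrombospondin 1 (Thbs1), the last of the 20 named, stood at 658 against 2422 in WT and 397 against 1517 in Clec7a-/- and at 1321 against 7077 in WT and 1613 against 5937 in Clec7a-/-. S100a4, S100a6 and F10 were thus higher in the members than in the rich kind and lower than in the monocyte set in both libraries.

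The members varied along the C1q score itself. They were split at scores of 50 and 100 into 136, 206 and 117 barcodes in WT and 80, 102 and 104 in Clec7a-/-, so that 25.5% of WT and 36.4% of Clec7a-/- members fell in the top bin. Of 1665 genes tested, 54 (3.24%) were more than 2-fold higher in the top than in the bottom bin in both libraries and 63 (3.78%) more than 2-fold lower. From the bottom to the top bin the level of Selenop was 233, 688 and 1418 in WT and 192, 604 and 1349 in Clec7a-/- CPM. Timp2, an inhibitor of matrix metalloproteases, ran 73.9, 200.4 and 268 in WT and 50.2, 188 and 270.5 in Clec7a-/-. Ms4a7 ran 174, 489.8 and 718 in WT and 159, 476 and 685 in Clec7a-/- and Olfml3, a secreted matrix protein, 31.5, 151 and 286 in WT and 61.3, 151 and 297 in Clec7a-/-. All rose at each step in both libraries, as did Fcrls (23.3, 136 and 257 in WT and 30.7, 139.9 and 301 in Clec7a-/-) and Mmp2 (39.7, 145 and 283 in WT and 30.7, 117 and 225 in Clec7a-/-). Cadm1, an adhesion molecule, had no UMI in the bottom bin of Clec7a-/- and stood at 128 and 188 above it. In the other direction S100a6 ran 631, 311 and 96.3 in WT and 711, 387 and 61.7 in Clec7a-/-. S100a4 ran 419, 114 and 61.7 in WT and 474, 148 and 49.0 in Clec7a-/-. Inhba ran 482, 202 and 29.5 in WT and 270.5, 142 and 15.8 in Clec7a-/- and F10 193, 60.2 and 8.99 in WT and 343, 67.5 and 12.7 in Clec7a-/-. The eosinophil-attracting chemokine gene Ccl24 ran 283, 36.01 and 3.85 in WT and 413, 133 and 49.0 in Clec7a-/-. Summed lists moved in the same sense, with the lysosome list at 21204, 29983 and 37912 in WT and 18681, 25803 and 35054 in Clec7a-/-. The list of Ccl24, Mmp19 and Sdc1 stood at 1776, 722 and 235 in WT and 1449.9, 609 and 316 in Clec7a-/-. The S100a8 and S100a9 sum, which also differed between bins, was 824, 496 and 239 in WT and 962, 273 and 177 in Clec7a-/-. The mature dendritic cell list was 614, 174 and 11.6 in WT and 574, 64.2 and 52.2 in Clec7a-/-. MHC class II ran the other way from the lysosome list in Clec7a-/-, at 28333, 21624 and 22198 in WT and 30620.1, 23013 and 20615 in Clec7a-/-. Median depth was lower in the bottom bin, at 4294.5 UMIs in WT and 4080 in Clec7a-/- against 6572 and 5614.5 in the top bin, and the part of depth and of the other transcripts in these ratios was not tested. The genes named here were picked by the rule of the other comparisons after the values were seen.

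**Figure D4:**
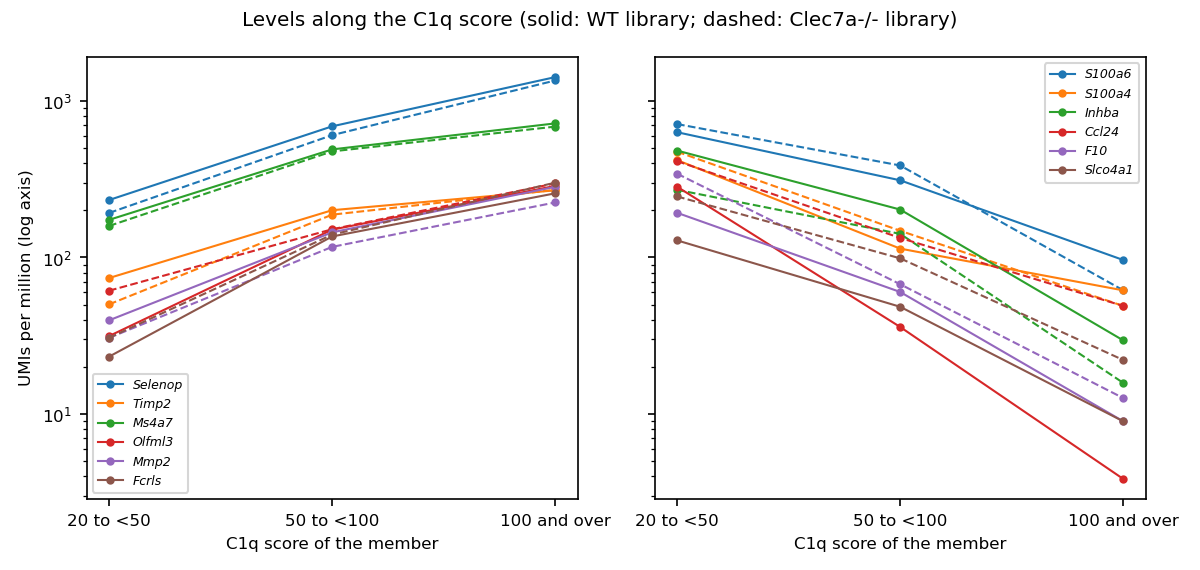
Lines join the CPM (log axis) of 12 genes in members with a C1q score of 20 to under 50, 50 to under 100 and 100 and over, solid for WT and dashed for Clec7a-/-. The 6 genes on the left rise at each step in both libraries, from 233 to 1418 for WT Selenop, and the 6 on the right fall.

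Graph clustering of the 745 members on their variable genes, run after the values were seen, split them into 6 groups, which are given by their leading genes and not named. The first, of 242 barcodes, was led by the adhesion gene Vcam1 (318 against 82.9 CPM in the other members), the iron exporter gene Slc40a1 (177 against 51.7) and Mfge8 (412 against 126), with a median C1q score of 104. Vcam1 lay in 96 of the 242, Slc40a1 in 107 and Mfge8 in 121. The next, of 228, was led by Ccl17 (143 against 9.57), Ccr7 (385 against 30.5) and Ccl24 (336 against 36.5), with a median C1q score of 49.3. Most of the 228 lacked each of these genes, as Ccl17 lay in 26, Ccr7 in 66 and Ccl24 in 42. A group of 122 was led by the heat shock gene Hspa1b (1216 against 67.5) with Cxcl10 (104 against 9.16) and the immediate early genes Nr4a1 (362 against 68.6) and Egr1 (146 against 30.6), transcripts that tissue dissociation is known to raise. Hspa1b lay in 74 of the 122, Nr4a1 in 78, Egr1 in 40 and Cxcl10 in 24. A group of 80 was led by neutrophil genes, Lcn2 (254 against 8.55), Retnlg (556 against 19.0) and S100a9 (2189 against 109), with a median S100a8 and S100a9 score of 30.4. S100a9 lay in 78 of the 80, Retnlg in 37 and Lcn2 in 34. A group of 38, of which 33 came from WT, had a median of 11477.5 UMIs and had Spp1 (2691 against 905) and Inhba (454 against 164) among its leading genes. Its first gene, Il10 (195 against 35.5), lay in only 3 of the 38 barcodes. The smallest, of 35, was led by the cell cycle genes Ube2c (287 against 5.73), Pclaf (341 against 8.49) and Birc5 (388 against 10.3). The same UMIs made the groups, so these genes describe the groups and are no test of them, and the defining genes also set their sizes.

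Between the genotypes most genes of the members differed by less than 2-fold, and the largest ratios included an enzyme of pyrimidine breakdown, a heme-binding protein and a gelatinase, which were higher in Clec7a-/-, and Tmem267 and Ankrd33b, which were lower. Of 5074 genes with at least 100 UMIs over the members of both libraries, 9 (0.177%) were more than 2-fold higher in Clec7a-/- and 24 (0.473%) more than 2-fold lower, 48.8% were above 0 and the median log2 ratio was -0.01. Log2 ratios were taken on UMIs plus 0.5. The largest rise was in Dpys (chr15:39768487-39857470), the pyrimidine enzyme dihydropyrimidinase, at 39.8 (33.1 to 47.6) CPM in WT and 204 (182 to 227) in Clec7a-/-, and the log2 ratio was 2.35 (2.05 to 2.67). It was 2.098 in the rich kind and 2.49 in barcodes outside both kinds. Hebp1, a heme-binding protein, stood at 71.8 (62.6 to 82.0) and 242 (219 to 267), and the log2 ratio was 1.75 (1.51 to 2.0), with 1.70 in the rich kind and 4.14 outside both. Mmp9 stood at 72.5 (63.2 to 82.7) and 213 (191 to 237), and the log2 ratio was 1.56 (1.31 to 1.81), against -0.12 in the rich kind and -1.08 outside both. Its UMIs lay in 47 of 459 WT and 47 of 286 Clec7a-/- members, 1 of which held 49 of the 220 UMIs in WT and another 55 of the 341 in Clec7a-/-. The interferon-induced chemokine gene Cxcl10 was at 18.8 in WT and 39.4 in Clec7a-/- (1.07), in 22 and 20 members, and its log2 ratio turned to -0.29 when the Mmp13 and Pf4 limit was 5. Gas7, Stk38l, Cd34, the formyl peptide receptor gene Fpr2 and Clec4a3 completed the 9, with log2 ratios from 1.05 to 1.23. Each of these 5 fell under 1 with at least 1 alternative, among them Clec4a3 and Fpr2 when the barcode with the highest count of the gene was left out of each library. Cx3cr1 came next, at 64.2 (55.5 to 73.9) and 120.1 (104 to 138), and the log2 ratio was 0.90 (0.61 to 1.20), with cathepsin F (Ctsf) at 0.88. Ccl24 was at 0.90, in 31 WT and 30 Clec7a-/- members with 65 of its 265 WT UMIs in 1 barcode. It turned to -0.15 when members with transcripts of other classes, a score that counts Ccl24 itself, were left out.

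The genes lower in Clec7a-/- members began with Tmem267, at 63.9 in WT and 5.63 in Clec7a-/- (log2 ratio -3.43, interval -4.65 to -2.55), and Ankrd33b, at 41.5 in WT and 6.26 in Clec7a-/- (log2 ratio -2.66, interval -3.82 to -1.80). Both were also lower in the rich kind (-1.90 and -2.26) and outside both kinds (-3.22 and -3.67). Of 6 tested genes of the neutrophil list 5 were below 0 and 2 of them, Retnlg and Lcn2, past 2-fold, while the receptor gene Csf3r was at 59.9 in WT and 70.1 in Clec7a-/- (0.23). Retnlg stood at 94.2 in WT and 18.8 in Clec7a-/- (-2.31), the protease gene Asprv1 at 28.7 in WT and 10.6 in Clec7a-/- (-1.40) and lipocalin 2 (Lcn2) at 39.5 in WT and 15.01 in Clec7a-/- (-1.37). Without members with transcripts of other classes Asprv1 was at -0.35 and Lcn2 at -0.75, and as a mean over barcodes Lcn2 was at -0.65. S100a8 and S100a9 together made up 5549 CPM of the whole WT library and 1404 of the Clec7a-/- library. In the members they made up 509 and 389.8, and the part of neutrophil transcripts in these ratios was not tested. Hmgcs1, an early enzyme of cholesterol synthesis, was at 104 in WT and 38.2 in Clec7a-/- (-1.44). The lectin-like receptor gene Klrb1b (-1.81), the actin regulator gene Eps8 (-1.63), Ppbp (-2.22), the noncoding Gm26917 (-2.13) and the chemokine gene Ccl17 (-1.32) were among the 12 lowest. A single barcode held 93 of 186 WT UMIs of Gm26917 and another 64 of 119 of Ppbp, and without the top barcodes their log2 ratios were -1.26 and -1.47. Ccl17 lay in 26 WT and 9 Clec7a-/- members. When members with transcripts of other classes were left out it turned to 0.77, and Gm26917 and Ppbp were at -0.86 and -0.71. Beyond the 12, the called genes included Srxn1, an antioxidant enzyme (-1.02), Procr, the endothelial protein C receptor (-1.02), the proton pump subunit gene Atp6v0d2 (-1.13) and the immediate early gene Fosb (-1.06).

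Since Clec7a-/- members had the higher C1q scores, the ratios were also taken within the bins. Of the 33 genes past 2-fold, 27 stayed past 2-fold when the bins had equal weight. Signs within bins rested on few UMIs for some of them, with 1 UMI of Ccl17 and 8 of Asprv1 in the top bin, and Lcn2 changed sign between bins. From the bottom to the top bin the log2 ratio was 2.12, 2.52 and 2.36 for Dpys, 2.58, 1.51 and 1.61 for Hebp1 and 1.94, 1.71 and 1.44 for Mmp9. It was 1.32, 0.45 and 0.98 for Cx3cr1. Cx3cr1 rested on 29 UMIs in the bottom bin and Mmp9 on 23 in the top bin. Of the 33 genes, 8 (24.2%) lay on chromosome 6, where 253 of the 5074 tested genes (4.99%) lie, and this chromosome carries the knocked-out locus. They were Clec4a3 (chr6:122952515-122969875), Klrb1b (chr6:128813706-128826331), Hebp1 (chr6:135137522-135198022), Eps8 (chr6:137477245-137654876), Fgfr1op2 (chr6:146577203-146599198) and Stk38l (chr6:146724995-146778812), with Asprv1 and Plxna1. Asprv1 (chr6:86628164-86629710) and Plxna1 (chr6:89316314-89362620) lay apart from the others. Loss of Dectin-1 and the strain origin of the DNA around the locus cannot be told apart for genes close to the locus. How far DNA of that origin reaches was not measured.

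**Figure D5:**
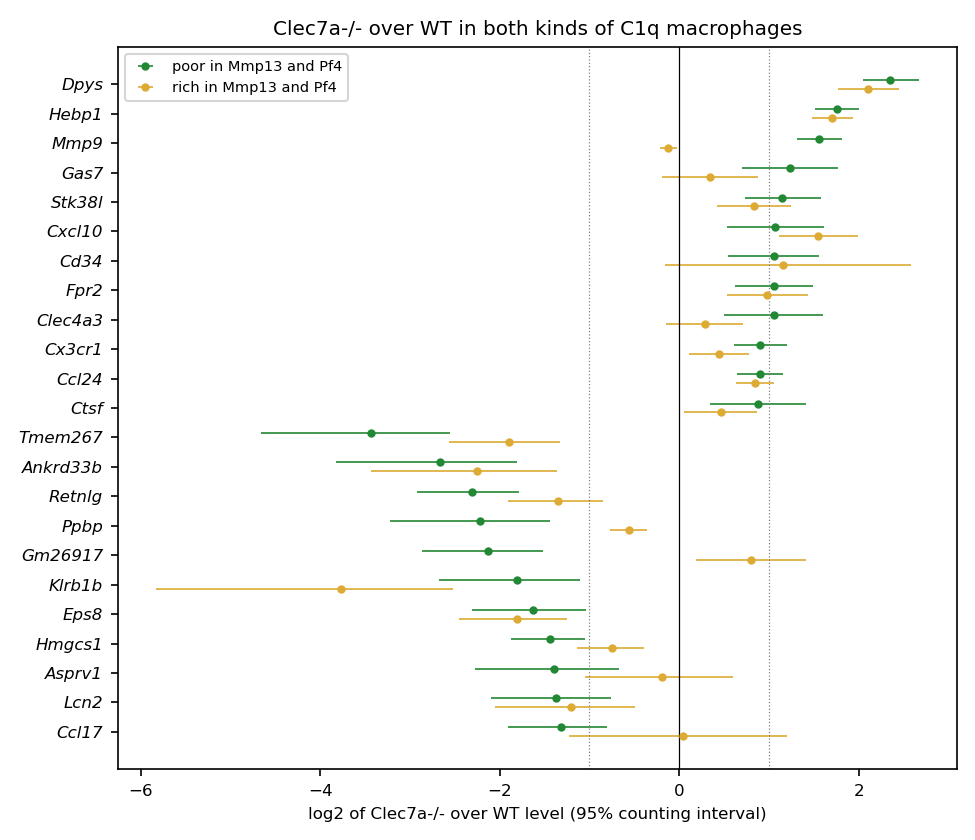
Points give the log2 ratio of Clec7a-/- over WT for genes among the 12 in each direction with the largest ratio in the members (green), and the ratio of the same genes in C1q macrophages rich in Mmp13 and Pf4 (yellow), with 95% counting intervals. Dpys (2.35 and 2.098) and Hebp1 (1.75 and 1.70) lie together in both kinds, while Mmp9 (1.56 and -0.12) lies apart.

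By role, the lists showed smaller shifts. Among iron and redox genes, 11 of 16 tested were below 0 in Clec7a-/- and 1 passed 2-fold lower, with a median of -0.34. Hmox1, heme oxygenase 1, stood at 8506 (8403 to 8610.4) and 5746 (5629 to 5864) CPM, and its log2 ratio was -0.57 (-0.60 to -0.53). Ferritin light chain (Ftl1) stood at 6935 in WT and 4685 in Clec7a-/- (-0.57) and peroxiredoxin 1 (Prdx1) at 5013 in WT and 3655 in Clec7a-/- (-0.46). The heme transporter gene Slc48a1 stood at 145 in WT and 74.4 in Clec7a-/- (-0.96) and Srxn1 at 365 in WT and 179.6 in Clec7a-/- (-1.02), whereas the log2 ratio of Fth1 was 0.01. Hmox1, Ftl1, Prdx1, Slc48a1 and Srxn1 were also lower in Clec7a-/- barcodes outside both kinds, at -1.49, -0.96, -0.92, -1.29 and -0.88. Of 11 cytokine genes 10 were below 0 and none passed 2-fold. Il1b stood at 658 (629 to 687) and 397 (366 to 429) and its log2 ratio was -0.73 (-0.86 to -0.60). Inhba stood at 225 in WT and 121 in Clec7a-/- (-0.90) and Vegfa, an angiogenic factor, at 509 in WT and 293 in Clec7a-/- (-0.80). Il10 stood at 57.3 in WT and 35.0 in Clec7a-/- (-0.70), and at -0.40 without the barcode with most Il10 UMIs in each library. Its UMIs lay in 22 of 459 WT and 24 of 286 Clec7a-/- members. After thinning to 2000 UMIs the share with Il10 ran the other way, at 2.36% in WT and 6.15% in Clec7a-/-. Csf1 stood at 46.1 in WT and 25.02 in Clec7a-/- (-0.87). Il1rn, which encodes the antagonist of the interleukin 1 receptor, had 1512 in WT and 1510.2 in Clec7a-/-. Odc1, ornithine decarboxylase, which starts polyamine synthesis, stood at 1040.0 in WT and 791 in Clec7a-/- (-0.39). Lysosome genes were below 0 in 11 of 16, with a median of -0.11.

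MHC class II genes had 3 of 6 above 0 and a range from -0.23 for H2-DMa to 0.12 for Cd74. Macrophage genes had 9 of 14 above 0 and none past 2-fold. Among them Apoe, a lipid carrier, stood at 4029 (3958 to 4101) in WT and 6256 (6133 to 6379) in Clec7a-/- and its log2 ratio was 0.63 (0.60 to 0.67), with 0.65 in the rich kind and -0.55 outside both kinds. Csf1r stood at 1514 in WT and 1909 in Clec7a-/- (0.34). The C1q genes were at -0.07 for C1qa, 0.21 for C1qb and 0.23 for C1qc, values that the rule itself bounds. Among 13 tested genes around Dectin-1 signaling, 10 were below 0 and none past 2-fold. The kinase gene Syk stood at 209 in WT and 206 in Clec7a-/- (-0.02) and the paracaspase gene Malt1 at 126 in WT and 80.7 in Clec7a-/- (-0.64). Fcer1g, which encodes a signaling chain of Fc receptors, stood at 3179 in WT and 3095 in Clec7a-/- (-0.04), and the adaptor gene Card9 had 3 UMIs in WT and 0 in Clec7a-/-. Of the prostaglandin genes, 4 of 7 tested were above 0. Ptgs2, which encodes cyclooxygenase 2, stood at 267 (249 to 286) and 168 (148 to 189) and its log2 ratio was -0.67 (-0.88 to -0.47), against -0.88 in the rich kind and -1.30 outside both kinds. Ptgs1 stood at 124 in WT and 113 in Clec7a-/- (-0.14), and the terminal synthase gene Ptges had 13 and 9 UMIs. Of 14 chemokine genes 9 were above 0, with Cxcl10 past 2-fold. Cxcl2 stood at 3301 in WT and 2352 in Clec7a-/- (-0.49) and Ccl3 at 322 in WT and 351 in Clec7a-/- (0.12). Transcription factor genes had 10 of 16 above 0 and none past 2-fold. Spi1, which encodes PU.1, stood at 369 in WT and 484 in Clec7a-/- (0.39) and Klf4 at 105 in WT and 61.9 in Clec7a-/- (-0.76).

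In the lists given next, only Mmp9, Cxcl10 and Fosb were past 2-fold in the members. Of 7 tested genes for Toll-like receptors and their partners 3 were above 0, with Tlr2 at 552 in WT and 612 in Clec7a-/- (0.15) and the lipopolysaccharide co-receptor gene Cd14 at 2556 in WT and 1981 in Clec7a-/- (-0.37). Of 10 checkpoint and costimulation genes 4 were above 0, with Cd274, which encodes PD-L1, at 154 in WT and 104 in Clec7a-/- (-0.56) and Vsir, which encodes VISTA, at 64.2 in WT and 81.3 in Clec7a-/- (0.34). Of 9 complement genes 7 were above 0, among them the anaphylatoxin receptor genes C3ar1 (323 in WT and 343 in Clec7a-/-) and C5ar1 (275 in WT and 322 in Clec7a-/-), whose log2 ratios were 0.08 and 0.23. Fc receptor genes had 2 of 5 above 0 and lay between -0.10 for Fcgr2b and 0.07 for Fcgr1. Of 13 lipid and Trem2-linked genes 3 were above 0, with Trem2 at 242 in WT and 234 in Clec7a-/- (-0.05), Spp1 at 1157 in WT and 884 in Clec7a-/- (-0.39) and the fatty acid carrier gene Fabp5 at 515 in WT and 366 in Clec7a-/- (-0.49). MHC class I genes had 1 of 7 above 0, with H2-D1 at 2120.2 in WT and 1898 in Clec7a-/- (-0.16). Heat shock genes had 3 of 10 above 0, and Hspa1b, at -0.53 in the members, was 2.44 in the rich kind. Immediate early genes were split, with 8 of 16 above 0, Egr1 at -0.75 and Junb at 0.25. Glycolysis genes had 7 of 14 above 0 within -0.17 for Eno1 and 0.23 for Aldoa, and cell cycle genes 4 of 7, with Stmn1 at 182 in WT and 216 in Clec7a-/- (0.25). Interferon-stimulated genes had 4 of 7 above 0, with Ifitm3 at 361 in WT and 439 in Clec7a-/- (0.28). Of 8 matrix protease genes 4 were above 0, with Mmp14 at 384 in WT and 395 in Clec7a-/- (0.04) and Mmp19 at 643 in WT and 419 in Clec7a-/- (-0.62).

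Shares of members with a UMI, after each barcode was thinned to 2000 UMIs, showed the same order for the leading genes. This left out 78 of 459 WT and 42 of 286 Clec7a-/- members as too shallow. Dpys was detected in 8.40% of WT and 36.1% of Clec7a-/- members (without thinning 21.6% and 54.5%), and in 0 of 32 and 2 of 51 T cell barcodes, which should lack macrophage genes. Hebp1 was detected in 12.3% and 33.2% (without thinning 31.6% and 53.5%), and in 0 of 32 and 1 of 51 T cell barcodes. Cx3cr1 was detected in 8.66% and 16.0% (without thinning 22.4% and 29.0%), and in 0 of 32 and 2 of 51 T cell barcodes. For Cx3cr1 the intervals of members and T cell barcodes overlapped in both libraries, at 6.04 to 11.9% against 0 to 10.9% in WT and 11.6 to 21.2% against 0.478 to 13.5% in Clec7a-/-. Mmp9 was detected in 6.30% and 12.3% of members (without thinning 10.2% and 16.4%), but also in 12.5% of WT and 9.80% of Clec7a-/- T cell barcodes, so the WT share lay at or below background and the Clec7a-/- share lay within the interval of its T cell barcodes (3.26 to 21.4). The median depth before thinning was 7159 UMIs in these WT members and 5742.5 in these Clec7a-/- members, and 2854.5 and 2939 in the T cell barcodes.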

How the data were processed

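Single-cell RNA-seq of CD11b+ and CD11c+ polyp cells was examined as 1 library per genotype. The values are UMI counts per gene and barcode, which the authors made with Cell Ranger 2.1.1 on mm10 and deposited unnormalized, per the submitters' processing notes. The study's methods name a SeekOne microwell kit, whereas the labels name another platform. The methods kept barcodes with at most 5% mitochondrial UMIs, and the rule used here allows 10%. Such 3' counts measure a gene by its end, so the orders of genes by UMIs and the summed lists describe UMI counts only. Reads of close paralogs can be split.

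UMIs were summed over the members of each library and scaled to 1000000 (CPM). The members held 3036453 UMIs in WT and 1598433 in Clec7a-/-, which allows the floor of 3 UMIs per library given for genes at 0. Log2 ratios added 0.5 UMIs, a gene needed 100 UMIs over the sets compared (in each library for the ratios within a library), and a ratio was called past 2-fold. Intervals at 95% are exact Poisson (CPM), Clopper-Pearson (shares) and conditional binomial (ratios), and cover counting error only. Named genes were those of the rule, the marker and pathway lists, the 10 most abundant genes, and the 12 largest ratios in each direction, for both libraries together the 12 with the largest smaller ratio. Genes of the C1q bins, of the cleaner monocyte set and of the clusters were picked after their values were seen, as were Procr and Atp6v0d2. The members and lists were chosen with earlier results of these data known. Clustering used 2000 variable genes, 20 principal components, 15 neighbours and a Leiden resolution of 0.6. Scrublet marked 0 of 3147 WT and 8 of 2702 Clec7a-/- barcodes (0.296%) and no member, too few for the caller to have worked, so doublets were not removed. Clec7a itself was not analysed here, and some genes that the rule names are not reported here. Promoter windows came from RefSeq. Python 3.11.15, numpy 2.4.6, scipy 1.17.1, pandas 2.3.3 and scanpy 1.11.5 were used, with TMM factors from edgeR 4.0.16 in R 4.3.3, and the script was tested on simulated data. Alternatives changed the mitochondrial, C1q, S100a8 plus S100a9 and Mmp13 and Pf4 limits, left out members with transcripts of other classes, and changed the scaling, the pseudocount and the UMI minimum.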

Additional observations from a re-analysis of the deposited data

Results flagged for a closer look

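For 4 genes past 2-fold between the genotypes in the members, the log2 ratio of Clec7a-/- over WT had a point value of the other sign in C1q macrophages rich in Mmp13 and Pf4. It was -1.32 in the members and 0.039 in the rich kind for Ccl17, -1.16 and 0.17 for Plet1, and -2.13 and 0.80 for Gm26917. It was 1.56 in the members and -0.12 in the rich kind for Mmp9. The counting intervals in the rich kind held 0 for Ccl17 (-1.22 to 1.20) and Plet1 (-0.36 to 0.69), so an opposite sign is not shown for these genes. Ccl17 in the members turned to 0.77 when members with transcripts of other classes were left out. Gm26917 in the members was then at -0.86. With 1 library per genotype the difference between the kinds was not tested, and 1 WT member held 93 of the 186 UMIs of Gm26917.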

How the results depend on the processing

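The share of members in Clec7a-/- over WT kept its direction under every alternative run, with log2 ratios from -0.47 to -0.26. Between the genotypes 9 genes were past 2-fold higher and 24 lower. The higher count was 5 with a C1q score of at least 40, 15 with the mean over barcodes, and 138 with a minimum of 20 UMIs. The lower count was 14 without members holding transcripts of other classes, 15 with a pseudocount of 5, and 172 with a minimum of 20 UMIs. Over the rich kind the 5 higher genes became 3 with a C1q score of at least 40, 3 with an Mmp13 and Pf4 limit of 5, 1 without other-class transcripts, 10 with the mean over barcodes, and 20 at 20 UMIs, and the 13 lower became 8 without other-class transcripts and 47 at 20 UMIs. Over the monocyte set the 225 higher and 113 lower genes became 541 and 370 at 20 UMIs. A lower minimum admits genes whose ratios rest on few UMIs. The cause of the other shifts was not tested.

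Some ratios turned. Cxcl10 between the genotypes was -0.29 with the Mmp13 and Pf4 limit at 5, and without other-class transcripts Ccl17 between the genotypes was 0.77 and Ccr7 over the rich kind was -0.31 in WT and -0.34 in Clec7a-/-. Over the monocyte set in WT, Lypd8 was 2.098 and Lgals4 1.14 with the 5% mitochondrial limit, and Igkc was 0.00145 without other-class transcripts. Against the monocyte set without mast, epithelial and B cell transcripts, chosen after seeing the data, WT ratios were 0.21 for Mcpt2, 1.92 for Lypd8, 0.98 for Krt8, 1.28 for Lgals4 and 0.30 for Igkc, and Clec7a-/- ratios were 0.32 for Lypd8 and 0.93 for Lgals4. Of 240 values between the genotypes 219 moved by less than their counting interval, as did 479 of 528 over the rich kind and 439 of 528 over the monocyte set. TMM scaling moved the ratios between the genotypes in the members by -0.02.

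No paired analysis was possible because each genotype has 1 library, and for the same reason no replicate could be left out. The spread between mice, the pooling and the library cannot be told apart from the genotype. Depth limits the rarest genes, since 3 UMIs are 0.988 CPM in WT and 1.88 CPM in Clec7a-/- members.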

Other observations

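Some genes of the lists fell below the minimum of 100 UMIs and entered no count, and these were picked after their values were seen. Cxcl9, an interferon-gamma-induced chemokine, had 51 UMIs in WT members and 2 in Clec7a-/- members, or 16.8 and 1.25 CPM. How many members held these UMIs is not given here. In barcodes outside both kinds of C1q macrophages Cxcl9 ran the other way, at 24.5 CPM in WT and 39.4 in Clec7a-/-. Ccl7, a chemokine that attracts monocytes, had 1 and 18 UMIs, or 0.329 and 11.3 CPM. Hpgd, which breaks down prostaglandin E2, had 9 and 15 UMIs.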
